A study of Rattus norvegicus with 17 samples.

Results

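Solute carriers are membrane proteins that move small molecules across the cell surface and the membranes of organelles. Some let a solute run down its own gradient, some couple its uptake to the sodium gradient, and others exchange 1 solute for another. In the brain they recover transmitters and their precursors, feed glutathione synthesis, regulate intracellular calcium and pH, and carry nutrients between blood, cerebrospinal fluid and cells. The genes described here were those whose symbol begins with Slc in the study's lists of genes near cytosines that differed in methylation, between Site #1 and Site #2 or between Site #1 and Site #3. The list for Site #1 and Site #3 was held only in part. Of 26 such genes, 3 were left out, namely Slc22a6 and the hippocampal region markers Slc4a4 and Slc29a4. The other 23 were above 0 in at least 1 library and made up the members, among 22664 genes tested. The lists they come from rest on methylation in the same rats.

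RNA was sequenced from the whole hippocampus of 17 male SAS Sprague Dawley rats kept at 3 laboratories that took part in 1 multi-site project. The comparison of sites therefore asks how far tissue from rats kept under baseline conditions differs between laboratories. There were 5 rats at Site #1, 6 at Site #2 and 6 at Site #3, each giving 1 library. Rats of Sites #1 and #2 came from Charles River at 8.3 weeks of age, were housed singly, were killed 18 to 19 days after arrival, and their tissue was handled in saline. Rats of Site #3 came from Harlan at 8.0 weeks, were housed in pairs on another diet, were killed after 27 days, and their tissue was handled in bubbled artificial cerebrospinal fluid. Vendor, housing, diet, days and buffer therefore cannot be told apart in any comparison with Site #3. The deposited values were normalised log2 expression values per gene, with no read counts, so the depth of each library is not given in the files. Spread in these values shrank at low levels, and differences of genes with low values are therefore understated. No scaling by transcript length is given for these values, so levels were not compared between genes. The exception is naming the marker with the highest value where markers of a cell type are summed.

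The tissue carried the markers of its labelled origin. The neuronal markers were high in every library, with Rbfox3 between 12.08 and 12.33, Neurod6, found in pyramidal cells, between 13.14 and 13.80, and the GABA-synthesising enzyme Gad2 between 13.40 and 13.90. The astrocyte marker Gfap lay between 15.02 and 15.43, the oligodendrocyte marker Tf between 14.51 and 15.11, and the microglial marker Csf1r between 11.73 and 12.18. Genes at 0 in all libraries were left out beforehand. No tested marker of neurons, astrocytes, oligodendrocytes, microglia, endothelium, fibroblasts or choroid plexus could therefore be at 0 throughout.

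A set of 4 libraries stood apart from the rest in markers of fibroblasts such as those of the meninges and larger vessels. The collagen gene Col1a1 was at 10.95 in Site #1 replicate 5, 10.64 in Site #2 replicate 3, 10.70 in Site #3 replicate 1 and 10.07 in Site #3 replicate 2. In the other 13 libraries it lay between 8.53 and 8.95. Of the 5 fibroblast markers, Col1a1, Col6a3, Fmod and Mrc2 were each higher in these 4 libraries than in any other. Tbx15 lay between 3.21 and 3.39 over all libraries and reached at most 3.31 in the other 13. Its level was low, where differences are understated. Of the 5, Col1a1 had the highest value in these 4 libraries and Mrc2 in the other 13. The summed level of the 5 markers was 103, 81.2, 102 and 69.8 approximate CPM, a normalised abundance per library, in the 4 libraries, against 30.5 to 41.6 CPM in the rest. These CPM are powers of 2 of the deposited values, rescaled so that each library has an equal total.

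Site #3 replicate 1 stood apart in a further way. F5, a marker of choroid plexus epithelium, was at 12.04 there and between 5.36 and 5.76 in the other 16 libraries. Aqp1, the water channel of the same epithelium, was at 7.74 there and between 5.28 and 6.18 elsewhere, and Car12 was at 12.17 within an overall range of 11.49 to 12.21. The 3 choroid plexus markers summed to 224 CPM in that library and to 72.8 to 119 CPM in the others, with the value of Car12 the highest of the 3 in each of the 17. The 4 libraries with high Col1a1, which include this one, were kept in all comparisons unless stated.

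The 8 amino acid and peptide carriers all passed a filter of a mean of 1 CPM. Mean log2 values over the 17 libraries (± SD) were 11.36 ± 0.083 for Slc7a1, which takes up arginine and lysine, and 11.32 ± 0.117 for Slc7a8, an exchanger of neutral amino acids. Slc7a4, a relative of the cationic amino acid carriers, was at 11.26 ± 0.085. Slc7a11, which exchanges extracellular cystine for intracellular glutamate and so feeds glutathione synthesis, was at 11.96 ± 0.176. Slc38a1, a sodium-coupled carrier that takes up glutamine, was at 10.94 ± 0.210, and Slc38a7, a lysosomal glutamine carrier, at 10.18 ± 0.060. Slc6a9, which clears glycine from the extracellular space, was at 11.81 ± 0.097, and Slc15a4, which exports histidine and peptides from lysosomes, at 10.23 ± 0.079.

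Of the 5 ion carriers, Slc8a2, a sodium-calcium exchanger of neurons, was at 13.65 ± 0.109 and Slc4a3, a chloride-bicarbonate exchanger, at 11.81 ± 0.119. Slc12a9, a relative of the cation-chloride cotransporters, was at 9.46 ± 0.097. Slc24a1, a potassium-dependent sodium-calcium exchanger best known from rod photoreceptors, was at 6.12 ± 0.175. Slc34a2, a phosphate carrier of lung and gut epithelium, was at 0.958 ± 0.019 and did not reach 1 CPM.

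Among the 6 carriers of sugars, inositol, vitamins, nucleosides and organic cations, 3 did not reach 1 CPM. These were Slc22a3, a low-affinity carrier of monoamines and other organic cations, at 3.32 ± 0.085, Slc47a1, which exports organic cations in exchange for protons, at 4.73 ± 0.198, and Slc44a4, a choline-transporter-like protein, at 5.33 ± 0.160. Slc2a12, a glucose carrier, was at 7.52 ± 0.415, and Slc5a11, a sodium-coupled inositol carrier, at 8.23 ± 0.128. Slc29a3, a nucleoside carrier of lysosomes and other organelles, was at 9.62 ± 0.102.

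The 4 mitochondrial and other intracellular carriers were Slc25a1, the mitochondrial citrate carrier, at 10.29 ± 0.080, Slc25a28, which brings iron into mitochondria, at 10.39 ± 0.050, Slc35e4, an uncharacterised relative of the nucleotide sugar carriers, at 10.77 ± 0.066, and Slc25a51, the mitochondrial carrier of NAD, at 3.10 ± 0.035. Slc25a51 was below 1 CPM as well, so 18 of the 23 passed that filter. All 23 stayed in the tests.

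**Figure D1:**
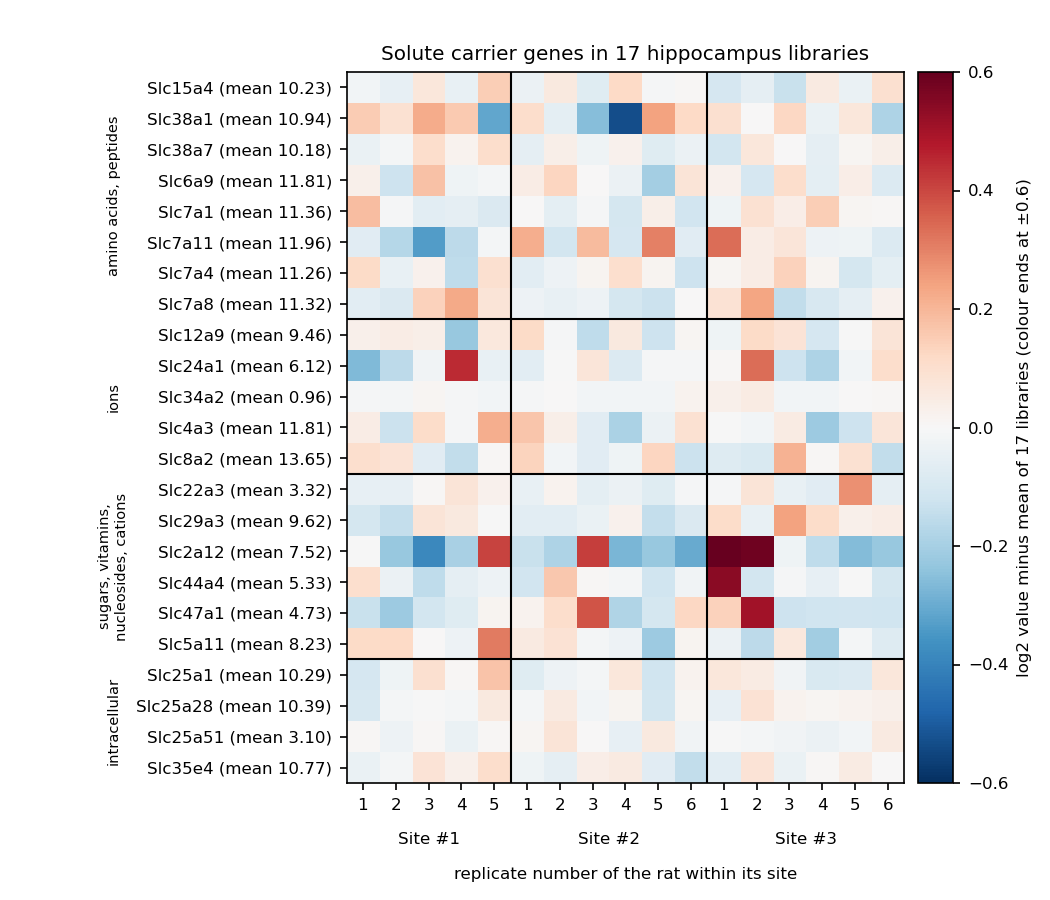
Each row is a member, with its mean log2 value in brackets and the members grouped by role, and each column is 1 of the 17 libraries, ordered by site and replicate. Colour gives the log2 value minus the member's mean over all libraries and ends at 0.6 in either direction; the strongest colours fall in Slc2a12, Slc38a1, Slc44a4, Slc47a1 and Slc24a1, in a few libraries each.

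None of the members was called between sites by limma, where a gene was called if its p, adjusted over all genes, was under 0.05. Between Site #1 and Site #2, 0 of 23 members and 0% of all 22664 genes were called, and 1 member and 6.74% of all genes had an unadjusted p under 0.05. Between Site #1 and Site #3, 0 of 23 members and 0.101% of all genes were called, and 2 members and 8.17% of all genes had an unadjusted p under 0.05. Between Site #2 and Site #3, 0 of 23 members and 1.05% of all genes were called, and 2 members and 14.8% of all genes had an unadjusted p under 0.05. The members' counts lay near or below these backgrounds. The comparisons share sites and are not independent of each other.

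The median absolute log2 difference of the members was 0.036 for Site #1 and Site #2 and 0.045 for Site #1 and Site #3. It was 0.040 for Site #2 and Site #3. Over all genes these medians were 0.024, 0.023 and 0.029, and over the 24 other transport proteins described below 0.048, 0.042 and 0.050. The background of all genes includes those with low values, whose differences are understated, and was not matched for level here. Of the 23 members, 7 had a higher mean at Site #2 than at Site #1, 14 a higher mean at Site #3 than at Site #1, and 15 a higher mean at Site #3 than at Site #2. Over all genes these numbers were 11187, 11979 and 11447 of 22664. With the 4 libraries with high Col1a1 left out, they were 10, 12 and 11 of the 23 members and 11859, 11794 and 11730 of all genes. The ranges of every member overlapped in each pair of sites. The share of all genes with such overlap was not counted, so the overlap is not read as a trait of the members.

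**Figure D2:**
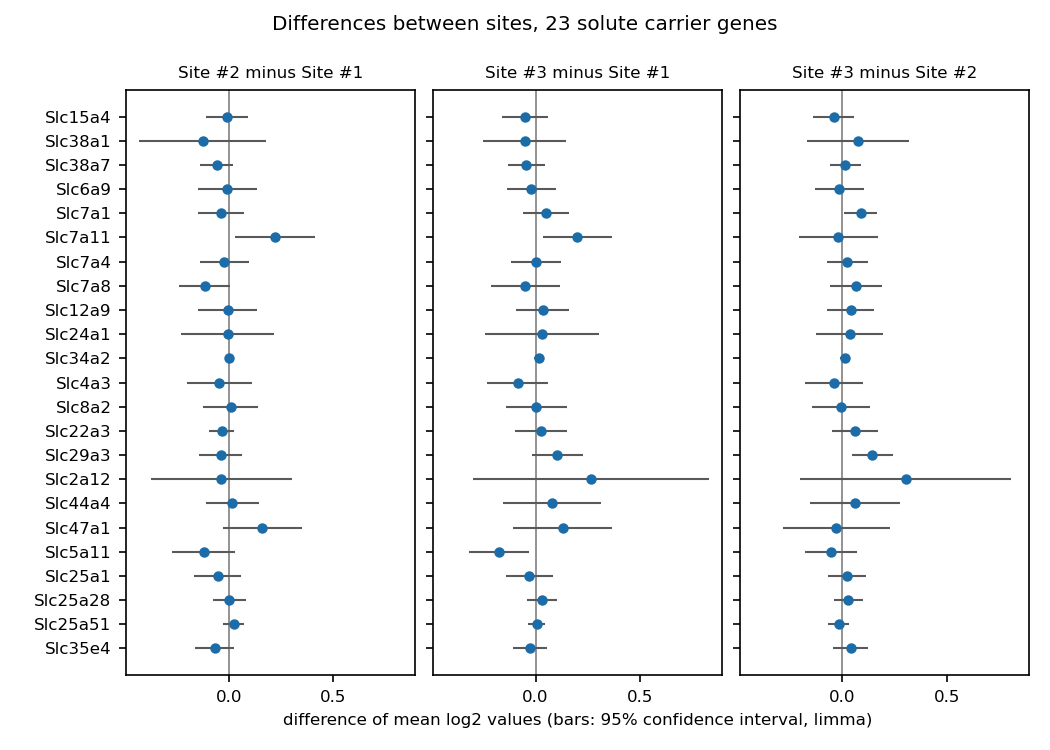
Each point is the difference of a member's mean log2 value between a pair of sites, with bars for the 95% confidence interval from limma, and a line marks no difference. The intervals of Slc7a11 exclude 0 in both comparisons with Site #1, those of Slc5a11, Slc29a3 and Slc7a1 in 1 comparison each, and the widest intervals belong to Slc2a12.

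Slc7a11 was at 11.89, 11.78, 11.62, 11.80 and 11.94 in the 5 Site #1 rats. It had a lowest, median and highest value of 11.85, 12.02 and 12.26 at Site #2 and 11.88, 11.97 and 12.29 at Site #3. The Site #1 values filled the lower end, and their 2 highest overlapped the lower values of both other sites. The log2 difference was 0.22 for Site #2 minus Site #1 (95% confidence interval 0.028 to 0.413, limma adjusted p = 0.697). It was 0.201 for Site #3 minus Site #1 (0.035 to 0.367, limma adjusted p = 0.490), so neither passed the correction over all genes.

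Slc5a11 was at 8.35, 8.35, 8.23, 8.20 and 8.54 at Site #1. Its lowest, median and highest values were 8.01, 8.23 and 8.32 at Site #2 and 8.02, 8.17 and 8.29 at Site #3. The highest value of all was in Site #1 replicate 5, and the 3 sites overlapped between 8.20 and 8.29. Site #3 minus Site #1 was -0.175 (95% confidence interval -0.321 to -0.030, limma adjusted p = 0.490). Without the 4 libraries with high Col1a1 it was -0.111 (-0.260 to 0.038, limma adjusted p = 0.725).

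Slc29a3 had the smallest unadjusted p of any member. Its lowest, median and highest values were 9.47, 9.55 and 9.65 at Site #2 and 9.57, 9.69 and 9.86 at Site #3, and the Site #1 values were 9.51, 9.48, 9.69, 9.67 and 9.62. Most Site #3 values lay above the highest of Site #2, with an overlap from 9.57 to 9.65. Site #3 minus Site #2 was 0.144 (95% confidence interval 0.045 to 0.243, limma adjusted p = 0.151).

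Slc7a1 was lowest, median and highest at 11.24, 11.32 and 11.39 at Site #2 and at 11.33, 11.39 and 11.51 at Site #3. Site #1 held both the highest value, 11.54 in replicate 1, and values of 11.35, 11.29, 11.30 and 11.27, within the range of Site #2. Site #3 minus Site #2 was 0.088 (95% confidence interval 0.009 to 0.167, limma adjusted p = 0.281).

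Slc7a8 was at 11.26, 11.23, 11.46, 11.55 and 11.40 at Site #1, and lowest, median and highest at 11.19, 11.28 and 11.32 at Site #2 and 11.17, 11.31 and 11.56 at Site #3. Site #2 values were the most closely grouped and lay within the range of Site #3. Site #2 minus Site #1 was -0.115 (95% confidence interval -0.237 to 0.007, limma adjusted p = 0.747), and -0.073 without Site #1 replicate 4 (limma adjusted p = 0.822).

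The other 18 members had larger unadjusted p-values than these 5. For several the intervals were narrow. For Slc25a28 the 95% confidence interval of Site #2 minus Site #1 ran from -0.077 to 0.083, and for Slc38a7 that of Site #3 minus Site #2 from -0.060 to 0.087. For Slc2a12 they were wide, with Site #3 minus Site #1 at 0.267 (-0.298 to 0.832) and Site #3 minus Site #2 at 0.303 (-0.204 to 0.810). Without the 4 libraries with high Col1a1 these fell to 0.037 (-0.160 to 0.233) and 0.058 (-0.070 to 0.185), and without Site #3 replicate 1 alone to 0.065 and 0.101. The intervals given for Slc2a12 take in differences of either sign.

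A difference that grew without the 4 libraries is named here after its values were seen. Site #3 minus Site #1 of Slc38a1 was -0.052 (95% confidence interval -0.250 to 0.147, limma adjusted p = 0.905) with all libraries and -0.164 (-0.315 to -0.013, limma adjusted p = 0.585) without the 4. It was -0.145 without Site #1 replicate 5 alone and -0.012 without Site #1 replicate 3 or Site #3 replicate 6. With the 4 left out, 0 members were called by limma in any pair, and 1, 2 and 2 of 23 had an unadjusted p under 0.05 in the order of pairs above, beside 5.10%, 8.18% and 9.61% of all genes.

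Spread between libraries was measured as the SD within sites, pooled over the 17 libraries, and read against genes whose mean level lay within 0.5 log2 units. At or above percentile 90 of those genes were 7 of the 23 members, or 30.4%, beside 8.57% of all genes tested and 2 of 24 other transport proteins. The median percentile was 65.5 among members, 50.4 among all genes and 40.7 among the other transport proteins. By role, the 7 were 4 of 6 carriers of sugars, vitamins, nucleosides and organic cations, 2 of 8 amino acid and peptide carriers, 1 of 5 ion carriers and 0 of 4 intracellular carriers. Without the 4 libraries with high Col1a1, a setting chosen after seeing the data, 4 of the 23 were at or above percentile 90, or 17.4%, beside 8.71% of all genes and 1 of 24 other transport proteins. By role, in the order above, these were 1 of 6, 2 of 8, 1 of 5 and 0 of 4. The median percentiles under that setting were 70.4, 50.5 and 48.5 in the same order.

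**Figure D3:**
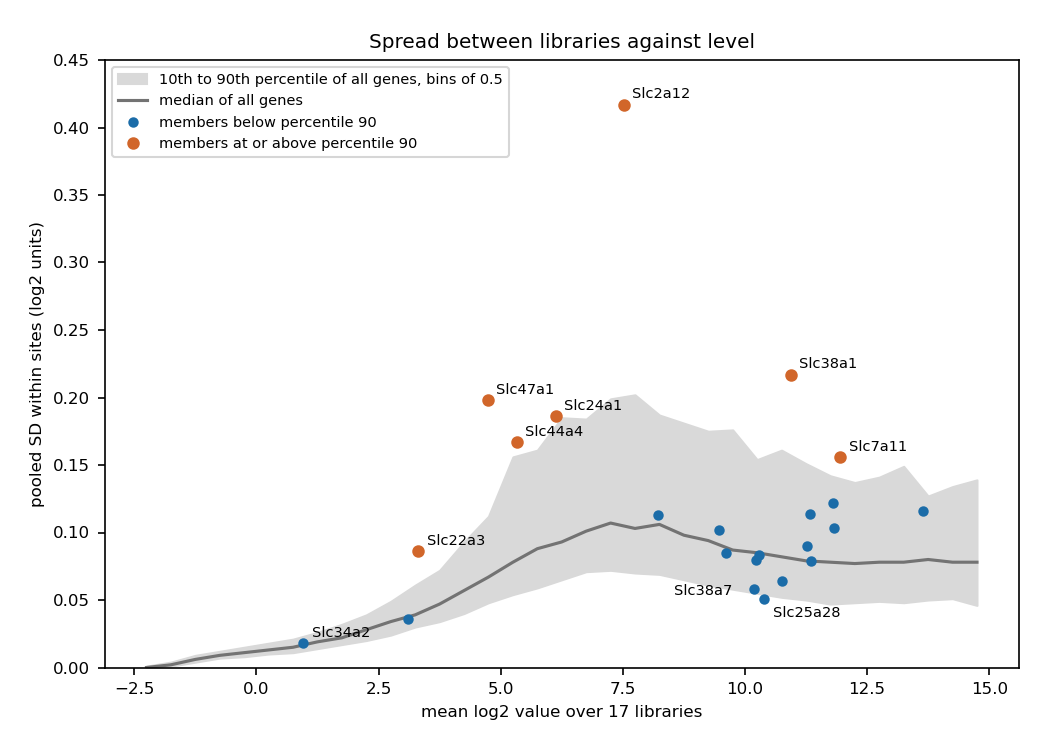
Points are the 23 members by mean log2 value and by pooled SD within sites, the shaded band spans the 10th to 90th percentile of all genes in bins of 0.5 log2 units, and the line is their median. Slc2a12 (SD 0.417), Slc38a1 (0.217), Slc47a1 (0.198), Slc44a4 (0.167), Slc7a11 (0.156) and Slc22a3 (0.086) lie above the band. Slc24a1 (0.186) lies only just above it, and Slc25a28 (0.051) just below its lower edge.

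Slc2a12 varied most, with a pooled SD of 0.417 at percentile 98.6. It was at 7.52, 7.29, 7.13, 7.32 and 7.92 at Site #1, lowest, median and highest at 7.22, 7.31 and 7.93 at Site #2, and at 7.26, 7.43 and 8.71 at Site #3. The highest values were 8.71 and 8.10 in Site #3 replicates 1 and 2, 7.93 in Site #2 replicate 3 and 7.92 in Site #1 replicate 5, while the other 13 libraries reached at most 7.52. These were the same 4 libraries that held the high Col1a1 values, with no overlap in either gene. Aqp1 set the same libraries apart, at 7.74, 6.14, 6.18 and 6.07 in that order and at most 5.70 in the other 13. Col1a1 fell into separate clusters, so no correlation was computed, and the part of fibroblast-rich or choroid plexus tissue in the Slc2a12 values was not tested. In bulk tissue, more or fewer cells of a type and more or less RNA per cell cannot be told apart. Without the 4 libraries the SD was 0.112, at percentile 64.5.

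Slc47a1 had a pooled SD of 0.198 at percentile 97.3. It was at 4.60, 4.52, 4.62, 4.66 and 4.75 at Site #1, lowest, median and highest at 4.55, 4.80 and 5.11 at Site #2, and at 4.61, 4.62 and 5.24 at Site #3. Its 3 highest values, 5.24 in Site #3 replicate 2, 5.11 in Site #2 replicate 3 and 4.87 in Site #3 replicate 1, fell in libraries with high Col1a1. The fourth such library, Site #1 replicate 5, was at 4.75, below the 4.86 and 4.84 of Site #2 replicates 6 and 2. Without the 4 libraries the SD was 0.091, at percentile 89.96.

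Slc44a4 had a pooled SD of 0.167 at percentile 92.7. It was at 5.43, 5.30, 5.18, 5.28 and 5.30 at Site #1, lowest, median and highest at 5.21, 5.32 and 5.49 at Site #2, and at 5.22, 5.30 and 5.87 at Site #3. The value of 5.87 belonged to Site #3 replicate 1, the library with high F5, and no other library exceeded 5.49. Without that library the SD was 0.086, at percentile 64.7, and the part of choroid plexus tissue was not tested.

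**Figure D4:**
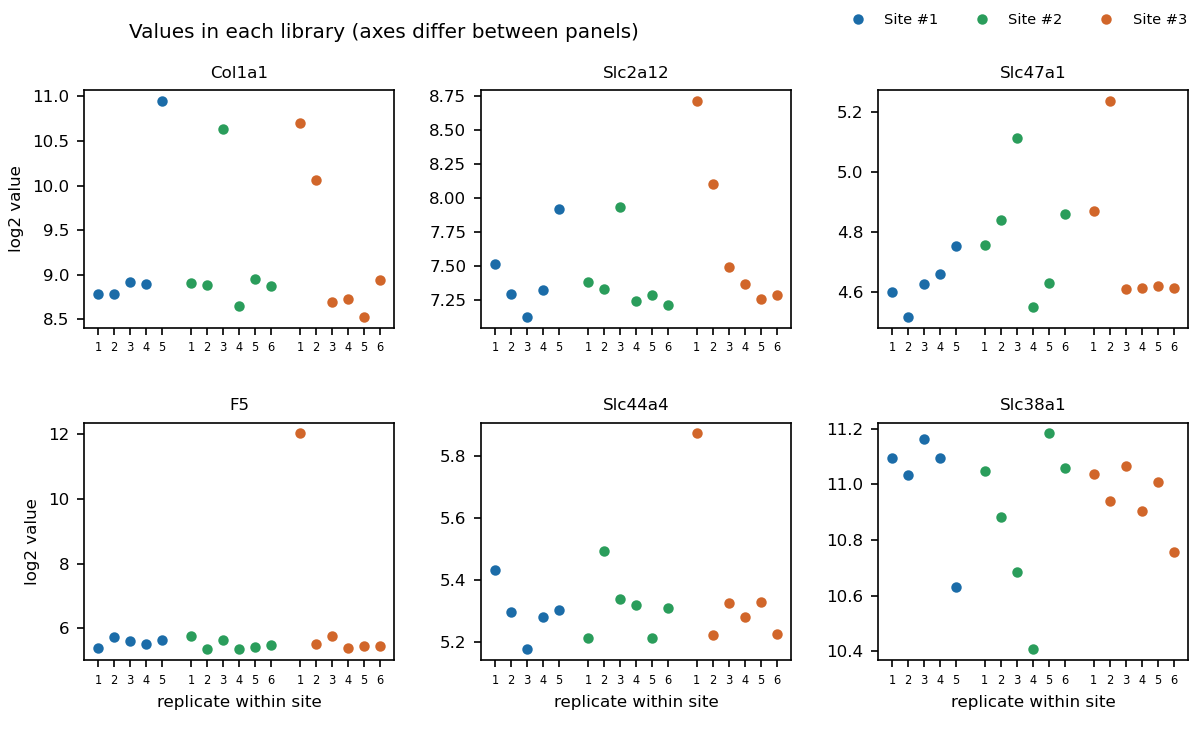
Log2 values of the fibroblast marker Col1a1, the choroid plexus marker F5 and 4 members in each of the 17 libraries, by site and replicate, on axes that differ between panels. Slc2a12 is above 7.9 in the 4 libraries with Col1a1 above 10, Slc44a4 is highest where F5 is at 12.04, and Slc38a1 is lowest in Site #2 replicate 4.

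Slc38a1 had a pooled SD of 0.217 at percentile 97.3. It was at 11.09, 11.03, 11.16, 11.10 and 10.63 at Site #1, lowest, median and highest at 10.41, 10.97 and 11.18 at Site #2, and at 10.76, 10.97 and 11.07 at Site #3. The low values were 10.41 in Site #2 replicate 4, 10.63 in Site #1 replicate 5, 10.69 in Site #2 replicate 3 and 10.76 in Site #3 replicate 6. High Col1a1 was present in 2 of these 4 libraries, and the other 2 libraries with high Col1a1 were at 11.04 and 10.94. The SD was 0.208 without the libraries with high Col1a1, at percentile 97.3, and 0.174 without Site #2 replicate 4.

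Slc24a1 had a pooled SD of 0.186 at percentile 91.5. It was at 5.86, 5.96, 6.10, 6.57 and 6.08 at Site #1, lowest, median and highest at 6.04, 6.12 and 6.20 at Site #2, and at 5.94, 6.12 and 6.46 at Site #3. The high values were in Site #1 replicate 4 and Site #3 replicate 2. Without Site #1 replicate 4 the SD was 0.132, at percentile 80.4.

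Slc7a11, whose values are given above, had a pooled SD of 0.156 at percentile 93.0. The highest values were 12.29 in Site #3 replicate 1, 12.26 in Site #2 replicate 5, 12.17 in Site #2 replicate 1 and 12.14 in Site #2 replicate 3. Without Site #3 replicate 1 the SD was 0.137, at percentile 88.8.

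Slc22a3 had a pooled SD of only 0.086, yet this lay at percentile 95.96 among genes of similarly low level. It was at 3.27, 3.27, 3.32, 3.39 and 3.34 at Site #1, lowest, median and highest at 3.24, 3.28 and 3.34 at Site #2, and at 3.25, 3.29 and 3.59 at Site #3. Site #3 replicate 5 held the 3.59, and no other library was above 3.39. Without it the SD was 0.049, at percentile 72.7.

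The remaining 16 members had a pooled SD of 0.122 or less, between percentiles 7.9 and 84.0. The steadiest for their level were Slc25a28, with an SD of 0.051 at percentile 7.9, Slc38a7, with 0.058 at percentile 13.1, and Slc35e4, with 0.064 at percentile 24.0. The range over all 17 libraries was 0.20, 0.22 and 0.25 log2 units for these genes and 1.58 for Slc2a12.

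The promoters of the 2 most variable members and of Slc44a4, a carrier that was high in 1 library, show how differently these genes begin. RefSeq promoters of 300 bases, from 250 before to 50 after the gene start in assembly GRCr8, were at hand for 19 of the 23 members by symbol, with no entry for Slc35e4, Slc47a1, Slc5a11 and Slc7a4. Capitals mark matches on either strand to 6 short motifs, and all 3 sequences run 5′ to 3′ on the minus strand.
Slc2a12, chr1:24677166-24677465: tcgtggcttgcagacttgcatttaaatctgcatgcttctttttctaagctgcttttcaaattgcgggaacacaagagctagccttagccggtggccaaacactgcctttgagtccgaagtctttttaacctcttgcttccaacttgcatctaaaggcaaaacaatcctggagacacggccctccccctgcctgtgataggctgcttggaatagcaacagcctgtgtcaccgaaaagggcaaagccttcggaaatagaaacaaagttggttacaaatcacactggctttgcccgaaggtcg
Slc38a1, chr7:129681352-129681651: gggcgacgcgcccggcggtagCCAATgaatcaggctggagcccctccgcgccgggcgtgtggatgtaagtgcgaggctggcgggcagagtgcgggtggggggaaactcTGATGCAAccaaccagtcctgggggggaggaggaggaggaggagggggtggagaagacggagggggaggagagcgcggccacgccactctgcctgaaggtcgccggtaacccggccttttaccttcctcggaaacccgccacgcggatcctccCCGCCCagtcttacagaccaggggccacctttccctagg
Slc44a4, chr20:3923805-3924104: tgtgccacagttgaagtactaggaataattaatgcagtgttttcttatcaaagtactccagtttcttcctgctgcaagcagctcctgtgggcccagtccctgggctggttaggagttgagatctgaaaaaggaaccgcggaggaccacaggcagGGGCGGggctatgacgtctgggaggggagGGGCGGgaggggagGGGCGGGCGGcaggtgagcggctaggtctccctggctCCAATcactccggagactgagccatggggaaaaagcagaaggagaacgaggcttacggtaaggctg
The GC box (GGGCGG) was in 12 of 19 member promoters and in 33.1% of all 33469 promoters in the table, and CCAAT in 8 of 19 and 37.5%. TATAAA was in 0 of 19 and 14.2%, and the E-box CACGTG in 3 of 19 and 6.42%. The amino acid response core TGATGNAA was in 2 of 19, Slc38a1 and Slc7a1, and in 3.98% of all promoters. The antioxidant response core TGACNNNGC was in 3 of 19, Slc29a3, Slc4a3 and Slc7a1, and in 12.1%. None of the 6 motifs was found in the Slc2a12 window. The dinucleotide CG occurred 9 times in the Slc2a12 window, 24 times in that of Slc38a1 and 11 times in that of Slc44a4, beside a median of 19 over members and 7 over all promoters. Members were chosen near CG cytosines whose methylation was measured, and the background of all promoters was not. The part of that choice in the counts of CG and of the motifs was not tested. A match is a description of the letters and not a site shown to be used.

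Pumps, ABC transporters and other transport proteins named in the same gene lists gave a further comparison, with 24 of 25 tested. Ucp1 was at 0 in all libraries. In limma, 0 of 24 were called between Site #1 and either other site, and 1 of 24 between Site #2 and Site #3, beside the 1.05% of all genes given above. At an unadjusted p under 0.05 the counts were 1, 1 and 3. The gene called was Atp1b1, a subunit of the sodium pump whose gradient drives the sodium-coupled carriers. It was lowest, median and highest at 16.54, 16.62 and 16.75 at Site #2 and at 16.36, 16.45 and 16.50 at Site #3, and the 5 values of Site #1, 16.67, 16.57, 16.46, 16.40 and 16.52, lay across both. Every Site #3 value was below every Site #2 value, and the share of all genes without overlap was not counted. The difference was -0.185 (95% confidence interval -0.265 to -0.105, limma adjusted p = 0.037). The call was lost in 9 of 12 fits that left out 1 library, all but those without Site #2 replicate 1, Site #2 replicate 6 or Site #3 replicate 4, with differences from -0.202 to -0.160 and adjusted p from 0.0389 to 0.0884 over all 12. With the replicate block the difference was -0.185 (limma adjusted p = 0.0746), and without the 4 libraries with high Col1a1 it was -0.168 (limma adjusted p = 0.244). The call was kept with all 17 libraries in 1 fit, array weights, no trend, the CPM filter or median centring. Over all 19 alternatives the limma adjusted p ran from 0.0157 to 0.244. Aqp1 and Atp2b1, a calcium pump of the cell surface, were the 2 of these 24 genes at or above percentile 90 of spread, Atp2b1 with an SD of 0.189 and values from 14.32 to 14.86.

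None of the cell type markers was called by limma between Site #2 and Site #3. Before adjustment, p was below 0.05 in 2 of 6 neuronal, 2 of 4 astrocyte, 2 of 5 microglial, 4 of 7 endothelial, 1 of 3 choroid plexus, 0 of 5 fibroblast and 0 of 3 oligodendrocyte markers, beside 14.8% of all genes. With the 4 libraries with high Col1a1 left out, these counts were 1, 1, 2, 4, 1, 3 and 0, beside 9.61% of all genes, and again none was called. The median log2 difference, Site #3 minus Site #2, was -0.045 for neurons, with 5 of 6 lower at Site #3, and -0.087 for oligodendrocytes, with 3 of 3 lower. It was 0.106 for astrocytes, 0.197 for microglia, 0.124 for endothelium, 0.542 for choroid plexus, with 3 of 3 higher, and 0.185 for fibroblasts, with 5 of 5 higher. These medians were -0.073, -0.093, 0.144, 0.147, 0.131, 0.201 and 0.121 in the same order without the 4 libraries, with 5 of 6 neuronal and 3 of 3 oligodendrocyte markers lower, and 3 of 3 choroid plexus and 3 of 5 fibroblast markers higher.

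In the comparisons with Site #1, too, limma called none of these markers. Between Site #1 and Site #2, p before adjustment was below 0.05 in 1 of 6 neuronal, 2 of 4 astrocyte, 1 of 5 microglial and 2 of 7 endothelial markers, beside 6.74% of all genes. Between Site #1 and Site #3 it was so in 2 of 6 neuronal, 2 of 4 astrocyte, 2 of 5 microglial and 0 of 7 endothelial markers, beside 8.17%. For choroid plexus, fibroblast and oligodendrocyte markers the counts were 0 in both. With the 4 high-Col1a1 libraries left out they were 1 of 3, 2 of 5 and 1 of 3 for Site #1 and Site #2. They stayed at 0 for Site #1 and Site #3. The neuronal, astrocyte, microglial and endothelial counts were then 1 each for Site #1 and Site #2, beside 5.10% of all genes. For Site #1 and Site #3 they were 2, 1, 1 and 1, beside 8.18%, and again no marker was called. The part of the cell mix in the differences of Atp1b1 and of the members was not tested.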

How the data were processed

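RNA from the hippocampus of 17 rats was sequenced by the authors, and each deposited file holds 1 log2 expression value per Ensembl gene. Per the labels, HISAT2, featureCounts and DESeq2 were used, with builds rn6 and hg19 named and no versions given. The values, from -2.28 to 20.22, look like a regularised log, but the normalisation step is not given in the sources used here. No counts were used, and the depth per library is not given in the files. Each file listed 32494 genes, of which 9830 were at 0 in all libraries and were left out, leaving 22664. The smallest median absolute difference between any pair of libraries was 0.035, so none was a copy of another.

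Sites were compared in pairs with limma 3.58.1 (lmFit and eBayes, the variance prior following the mean) in R 4.3.3, two-sided, with Benjamini-Hochberg adjustment over all genes tested, and genes were called at an adjusted p under 0.05. Other steps used Python 3.11.15 with pandas 2.3.3 and numpy 2.4.6. The fit was tested on simulated data. Symbols came from the study's gene lists, and promoters from RefSeq (GRCr8), whose coordinates were not mixed with rn6.

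Members and lists were chosen with earlier results of these data known, and the 6 motifs after values were seen. Every member is named with its level. Library values are given for members called in any pair, the 5 members with the smallest unadjusted p, the 6 with the largest SD, and those at or above percentile 90. Alternatives were the replicate number as a block, all 17 libraries in 1 fit, array weights, a filter of a mean of 1 CPM, no trend, median centring, leaving out each library, SD without centring on sites, a window of 0.25 log2 units and, added after seeing the data, leaving out the 4 libraries with high Col1a1. A planned fit of each gene on Col1a1 was not run, because Col1a1 was not a graded measure. The values of 1 transport gene on these lists are not reported here.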

Additional observations from a re-analysis of the deposited data

Results flagged for a closer look

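In each site, the highest and lowest library of every member and of the fibroblast and choroid plexus markers were compared with the rest of that site. The gap to the nearest library, divided by the site's whole range, exceeded Dixon's 95% critical value in 15 of 93 groups, 5 of them among the 69 groups of members. Chance alone sets apart about 1 group in 20, and the 5 of 69 for members lay near that share. The marker groups are not held against it. Libraries with high Col1a1 had been set apart by that gene, and the lists were chosen with earlier results known.

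Among members, Slc12a9 was low in Site #1 replicate 4 at 9.24, against 9.49 to 9.53 in the other 4 libraries (ratio 0.881). Slc38a1 was low in Site #1 replicate 5 at 10.63, against 11.03 to 11.16 (0.758). Slc2a12 was high in Site #2 replicate 3 at 7.93, against 7.22 to 7.38 (0.768). In Site #3 replicate 1, Slc44a4 was high at 5.87, against 5.22 to 5.33 (0.836), and Slc7a11 at 12.29, against 11.88 to 12.03 (0.635).

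Fibroblast markers were high in Site #1 replicate 5, with ratios of 0.939 for Col1a1, 0.797 for Col6a3 and 0.918 for Fmod. The same held in Site #2 replicate 3, with 0.845 for Col1a1, 0.830 for Col6a3, 0.856 for Fmod and 0.761 for Mrc2. At Site #3 both replicates 1 and 2 were high in these genes, and a gap to the nearest library does not pick out 2 libraries at once. Aqp1 was high in Site #2 replicate 3 (0.790) and in Site #3 replicate 1 (0.728), and F5 in Site #3 replicate 1 (0.945).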

How the results depend on the processing

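The count of members called was 0 in each pair of sites under every alternative run, namely the replicate block, all 17 libraries in 1 fit, array weights, no trend, the CPM filter, median centring, the fits without the 4 libraries with high Col1a1, and all 34 fits that left out 1 library. The differences named for Slc7a11, Slc5a11, Slc29a3, Slc7a1, Slc7a8, Slc2a12 and Slc38a1 kept their direction in all of these, with adjusted p between 0.110 and 0.994, though those of Slc2a12, Slc5a11, Slc7a8 and Slc38a1 moved by over 1.5 times in some. Counts over all genes moved more. With the replicate block, 0 genes were called between Site #1 and Site #2, 0 between Site #1 and Site #3 (23 without it) and 43 between Site #2 and Site #3 (239 without it). In pairs with Site #1, which has no replicate 6, the block also takes that library out of the difference, and without Site #3 replicate 6 and with no block the count was 14. Same-numbered libraries came from different rats at different sites, and deviations of the 16 such pairs correlated between -0.46 and 0.39, with 2 of 17 libraries closest to their own number, so the numbers were not taken as a pairing. Of the members and transport genes tested under alternatives, the block changed the call of Atp1b1 alone. In 1 fit of all 17 libraries, 36 genes were called between Site #1 and Site #3. The CPM filter, which leaves fewer genes both to fit and to correct for, gave 482 between Site #2 and Site #3. Without the 4 libraries with high Col1a1 the counts were 14 and 29 in the comparisons with Site #3, with fewer libraries in the fit. Leaving out 1 library gave 0 to 1 genes for Site #1 and Site #2, where 1 was called without Site #1 replicate 5 or Site #2 replicate 1. It gave 9 to 30 for Site #1 and Site #3, with 9 to 15 without any 1 of the 6 Site #3 libraries, and 81 to 333 for Site #2 and Site #3, where only the fit without Site #2 replicate 1 stayed within 1.5 times of 239. The causes of these changes in the counts were not tested.

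The count of members at or above percentile 90 of spread was 7, between 5 and 7 when 1 library was left out, 6 for SD without centring on sites, 7 with median centring or the narrower window, and 4 without the 4 libraries with high Col1a1. Alternatives planned for the fit on Col1a1 were not run. With no counts, precision from depth could not be judged, and small differences in genes with low values cannot be seen on this scale.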
